A study of Mus musculus with 8 samples.

Results

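The mRNAs of cytosolic ribosomal proteins were measured in liver from NFS/sld females. Mice of this strain that lose the thymus soon after birth serve as a model of primary Sjögren's syndrome, in which the immune system attacks the glands that make saliva and tears. The members were all probes whose gene symbol has the form of a ribosomal protein of the large subunit (Rpl) or the small subunit (Rps), together with Rpsa and the stalk proteins Rplp0, Rplp1 and Rplp2. They came to 181 probes for 82 genes, of 56605 probes on the array. The large subunit had 106 probes for 50 genes and the small subunit 75 probes for 32 genes. Liver RNA of 2 groups was hybridised to one-colour Agilent arrays, 4 per group. Tx mice were thymectomised on day 3 after birth and their liver was taken 8 weeks after surgery. nonTx mice were females of the strain that kept their thymus, with neither their age nor a sham operation stated in the sources used here. Replicates are called independent in the labels, but whether each is a separate animal is not said, so the p-values speak of the spread between samples only.

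A ribosome joins a small subunit, which reads the mRNA, to a large subunit, which forms the peptide bond, and each of its proteins is needed in about the same number of copies. Ribosomal protein mRNAs are among the most abundant of a cell. In mammals they begin with a run of pyrimidines, the 5′ TOP (terminal oligopyrimidine) motif, through which mTOR signalling and the protein Larp1 set their translation. The liver, which secretes most plasma proteins, is rich in ribosomes. Arrays measure the mRNA, not the protein or its translation. In bulk tissue, fewer cells of a type and less RNA per cell cannot be told apart.

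On each array 51.1% to 57.1% of probes had signal well above background. The 75th percentile of the signal, by which each array was scaled, ran from 225.0 to 330.0. All 8 arrays lay on 1 slide and were scanned together. The nonTx arrays filled its first row and the Tx arrays its second, so position on the slide and group cannot be told apart. Of 8 control probes for added spike-in RNA with a mean signal above 10, 8 had a higher scaled level in Tx, with log2 differences of 0.056 to 0.37. Hepatocyte markers (Alb, Ttr, Apoa1, Fgb, Cps1 and Tat) were all measured. Their log2 differences, Tx minus nonTx, ran from -0.37 (Ttr, with all Tx arrays below all nonTx arrays, although its other probe had 0.087) to 0.26 (Tat). The median was 0.020, and -0.092 after quantile normalization, when 1 of the 6 was higher.

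Ribosomal protein mRNAs were slightly higher in Tx livers under this scaling, and the shift was close to that of other strongly hybridising probes. Of the 181 probes, 172 were bright enough to be tested, and these stood for 79 genes. Tx exceeded nonTx at 160 of the 172 probes, or 93%, against 52.6% of all 30955 tested probes. The median log2 difference, Tx minus nonTx, was 0.16, or 1.12-fold, with an interquartile range of 0.12 to 0.21. Taking the brightest tested probe of each gene, 78 of 79 genes were higher in Tx, again with a median of 0.16. The large subunit genes had a median of 0.16 (46 of 47 higher) and the small subunit genes one of 0.17 (32 of 32 higher).

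No single ribosomal protein passed the test. With limma and Benjamini-Hochberg adjustment, 0 of the 172 probes had an adjusted p under 0.05, and so did 0 of the 30955 tested probes, or 0% of them. The smallest adjusted p was 0.283 among the ribosomal protein probes and 0.0577 among all probes. At an unadjusted p under 0.05, 46 ribosomal protein probes (26.7%) were higher in Tx and 1 was lower, against 7.17% higher and 6.03% lower of all tested probes. All 4 Tx arrays lay above all 4 nonTx arrays at 55 of the 172 probes (32%), 37 of the large and 18 of the small subunit. Among all tested probes this share was 4.47%. The opposite order was found at 0 ribosomal protein probes and 3.4% of all probes.

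The median difference was larger for brighter probes across the whole array. It was -0.24 in the dimmest 10% of tested probes and 0.15 in the brightest 10%, where 86.6% of probes were higher in Tx. Of the ribosomal protein probes, 146 belonged to that brightest 10%. Their median was 0.17, with 144 of 146 higher, and 42 of them (28.8%) had an unadjusted p under 0.05 in that direction, against 20.8% of all probes that bright. With Tx lower there were 0, against 1.71%. Complete separation of the groups was found at 55 of the 146 (37.7%), against 14.6% of all probes that bright, and in the opposite order at 0, against 0.937%. The median standard error was 0.088 for the 146 probes and 0.10 for all probes that bright. Many of the 146 share a gene and all share the same arrays, so they are not separate observations. The other 26 ribosomal protein probes, outside the brightest 10%, had a median difference of 0.056, and 16 of them were higher.

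Quantile normalization, which gives every array the same distribution of signal, left almost no shift. The median of the ribosomal protein probes became 0.0095 and that of the brightest 10% of all probes -0.0022. Tx was then higher at 96 of 172 ribosomal protein probes, or 55.8%, against 49.3% of all tested probes. At an unadjusted p under 0.05, 3 were higher and 3 lower (1.74% each), against 4.72% higher and 6.09% lower of all probes. The groups separated fully with Tx higher at 3 ribosomal protein probes (1.74%, against 2.71% of all), which belong to Rpl10a, Rps7 and a dim Rps20 probe. The size of the shared shift thus depends on how the arrays are scaled, while its median stayed above 0 with each of the scalings tried, between 0.0095 with quantile normalization and 0.26 with median scaling.

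**Figure D1:**
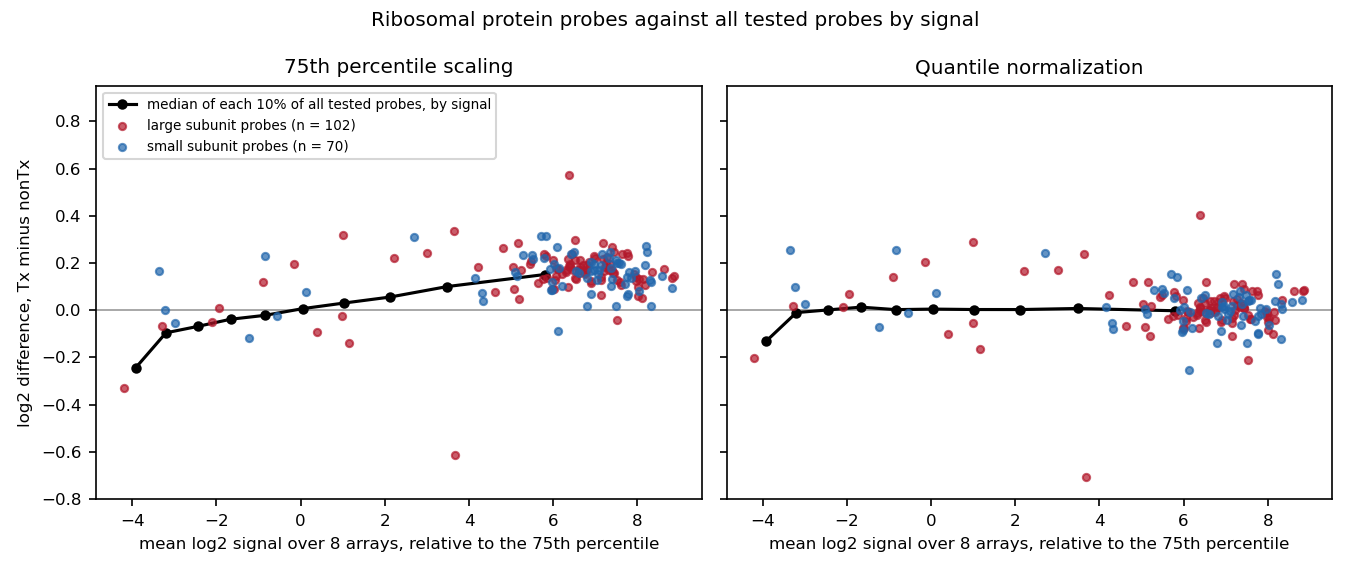
Each point is 1 of the 172 tested ribosomal protein probes, with its mean log2 signal on the x axis and its log2 difference, Tx minus nonTx, on the y axis, and the black line joins the medians of all tested probes in successive bands of 10% by signal. With 75th percentile scaling (left) the line runs from -0.24 to 0.15 and most ribosomal protein probes lie near its bright end; with quantile normalization (right) they lie around 0.

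The shift was unequal among the Tx arrays. The median deviation of the 172 probes from each probe's mean over the 8 arrays was -0.021, 0.053, 0.044 and 0.26 in Tx replicates 1 to 4, and -0.11, -0.088, -0.063 and -0.059 in nonTx replicates 1 to 4. All Tx values were above all nonTx values, but the Tx arrays were more widely spread, with a mean of 0.084 ± 0.12 in Tx and -0.081 ± 0.025 in nonTx (SD, n = 4 each). For the small subunit genes by their brightest probes, Tx replicate 1 (-0.052) lay below nonTx replicate 4 (-0.041). Of the 172 probes, 42.4% were above their own mean on Tx replicate 1 and 94.8% on Tx replicate 4. Tx replicate 4 gave the highest of the 8 values at 142 of the 172 probes, while nonTx replicate 1 gave the lowest at 71. The brightest 10% of all probes had medians of -0.050, 0.034, 0.11 and 0.20 in Tx and -0.090, -0.069, -0.071 and -0.065 in nonTx, so replicate 4 stood highest there too. Without Tx replicate 4, the median over the 79 genes was 0.11, and 23 probes rather than 46 had an unadjusted p under 0.05 with Tx higher. That count also moved by more than 1.5 times without Tx replicate 1 (89) and without nonTx replicate 1 (18), 2 (22), 3 (26) or 4 (28).

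After quantile normalization the same medians were 0.021, 0.029, -0.081 and 0.062 in Tx and -0.023, -0.017, 0.028 and -0.0074 in nonTx. The groups overlapped, with Tx replicate 3 the lowest of all arrays and Tx replicate 4 the highest. As a description, the correlation between the array profiles of any pair of ribosomal protein probes had a median of 0.71 over the 8 arrays under 75th percentile scaling, and 0.24 after quantile normalization. The probes of a pair share the arrays and their scaling.

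**Figure D2:**
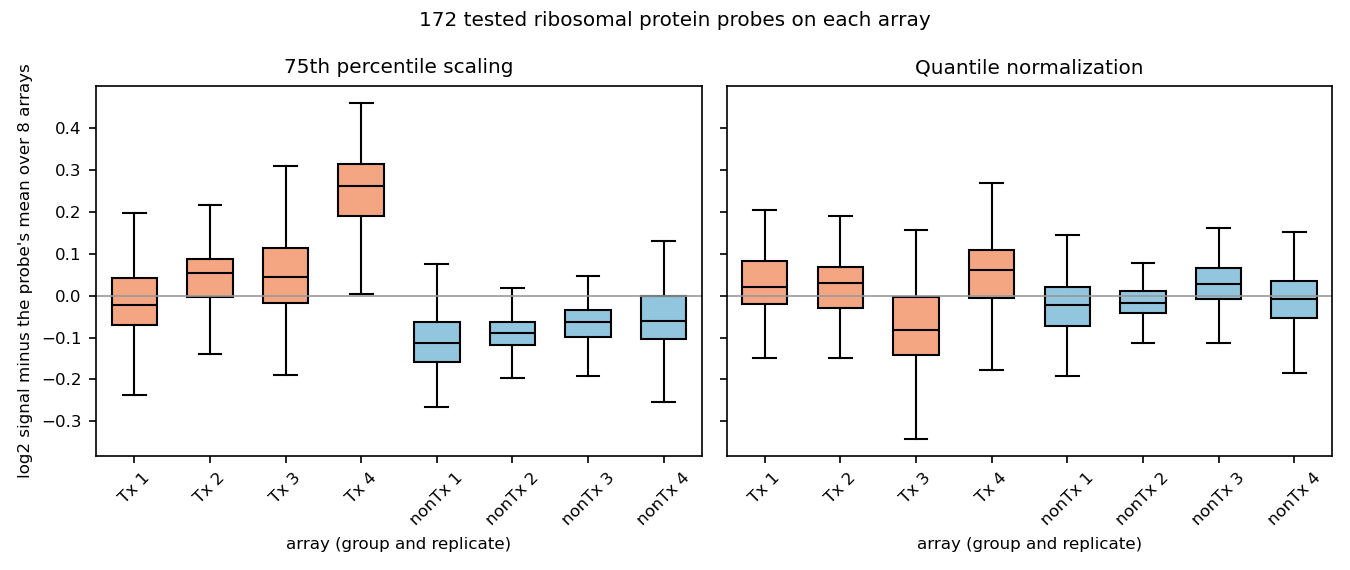
Boxes give the interquartile range, lines the median and whiskers the range within 1.5 times the box of 172 ribosomal protein probes on each array, as the log2 signal minus the probe's mean over the 8 arrays. With 75th percentile scaling (left) the Tx medians run from -0.021 to 0.26 and the nonTx medians from -0.11 to -0.059; with quantile normalization (right) the groups overlap.

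The start of the gene is shown for a few of the members as a description. Whether its letters bear on the array values was not tested. RefSeq promoters of build GRCm38.p6, from 250 bases before to 50 bases after the start, were matched by symbol for 61 of the 82 genes, with 73 start sites. A script searched both strands for CCGGAAG, a core bound by ETS family factors such as GABP. It also searched for GCCATCTT, bound by YY1, for TATAAA, the TATA box, and for the pyrimidine run CTCTTTC. The ETS core was present at 35.6% of the ribosomal protein start sites and at 8.86% of all 32851 start sites in the table. GCCATCTT was present at 9.59% of them and 2.75% of all, the pyrimidine run at 27.4% and 8.16%, and the TATA box at 9.59% and 13.6%. Some genes have several start sites with overlapping windows, so a match can count more than once. By gene, the ETS core was found at 25 of the 61, GCCATCTT at 5, the pyrimidine run at 17 and the TATA box at 7. Matches to the pyrimidine run include its opposite-strand form GAAAGAG, as at Rpl13, Rpl38 and Rps21. Such matches are letters in a window and not measured sites. The 5 promoters below start with Rpl13a, the gene with the largest positive difference. Next come Rps15a and Rpl15, which are among the genes with the smallest p-values. They are followed by Rpl35a, where a pyrimidine run begins at the annotated start shown. Relative to other annotated starts of Rpl35a, that run begins at +29 or -32. The last is Rpl10l, whose probe was too dim on all 8 arrays. Capitals mark the searched letters on either strand, and each runs 5′ to 3′ along its gene.
Rpl13a, chr7:45128696-45128995, minus strand: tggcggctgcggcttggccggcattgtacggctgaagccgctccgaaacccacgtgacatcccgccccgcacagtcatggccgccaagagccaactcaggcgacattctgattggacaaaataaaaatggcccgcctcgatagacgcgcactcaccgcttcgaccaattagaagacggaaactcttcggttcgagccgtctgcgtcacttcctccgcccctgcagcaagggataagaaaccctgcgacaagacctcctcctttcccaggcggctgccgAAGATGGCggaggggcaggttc
Rps15a, chr7:118116098-118116397, minus strand: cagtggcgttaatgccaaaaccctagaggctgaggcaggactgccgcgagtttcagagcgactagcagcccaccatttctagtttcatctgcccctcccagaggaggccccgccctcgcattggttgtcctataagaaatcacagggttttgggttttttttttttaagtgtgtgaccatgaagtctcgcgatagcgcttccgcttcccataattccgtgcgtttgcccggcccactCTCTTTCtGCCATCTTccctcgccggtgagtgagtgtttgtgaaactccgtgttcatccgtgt
Rpl15, chr14:18270937-18271236, minus strand: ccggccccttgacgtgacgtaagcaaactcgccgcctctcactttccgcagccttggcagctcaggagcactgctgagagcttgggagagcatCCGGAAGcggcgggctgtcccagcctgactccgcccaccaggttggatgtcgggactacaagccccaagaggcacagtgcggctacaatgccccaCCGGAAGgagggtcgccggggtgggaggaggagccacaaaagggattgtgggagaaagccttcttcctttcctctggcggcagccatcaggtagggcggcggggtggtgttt
Rpl35a, chr16:33056232-33056531, plus strand: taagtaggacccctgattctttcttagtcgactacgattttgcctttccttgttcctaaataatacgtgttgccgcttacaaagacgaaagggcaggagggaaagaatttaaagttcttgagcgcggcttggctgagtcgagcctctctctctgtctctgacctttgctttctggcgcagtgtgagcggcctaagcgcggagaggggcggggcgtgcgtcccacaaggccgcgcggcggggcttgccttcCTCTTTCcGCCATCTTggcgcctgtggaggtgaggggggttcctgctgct
Rpl10l, chr12:66284352-66284651, minus strand: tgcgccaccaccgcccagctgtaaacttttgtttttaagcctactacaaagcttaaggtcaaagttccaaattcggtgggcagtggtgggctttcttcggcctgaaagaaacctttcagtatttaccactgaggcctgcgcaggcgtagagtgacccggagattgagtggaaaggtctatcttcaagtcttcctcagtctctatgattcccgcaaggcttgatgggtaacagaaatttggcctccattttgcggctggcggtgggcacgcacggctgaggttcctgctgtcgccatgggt
Rpl13a and Rpl35a carry GCCATCTT just after the start, Rps15a carries it across the start with CTCTTTC just upstream, and Rpl15 carries CCGGAAG at 2 places upstream. The Rpl10l window holds none of the 4. Those of Rpl10, Rpl12 and Rps16, which were measured brightly on all arrays, hold none either. The window of Rpl39l, whose probe was also too dim on all 8 arrays, carries CCGGAAG at 2 places.

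In the values below, a level is the log2 signal of the gene's brightest tested probe relative to the array's 75th percentile, listed for replicates 1 to 4, and a difference is Tx minus nonTx with its standard error. Levels of different probes are not comparable. The arms of the large subunit are taken first. The P stalk, where Rplp0 anchors the acidic proteins Rplp1 and Rplp2 that recruit the translation GTPases, was higher in Tx at 3 of 3 genes, and at 2 of 3 after quantile normalization. Rplp0 had levels of 6.60, 6.78, 6.78 and 6.80 in Tx and 6.60, 6.62, 6.49 and 6.39 in nonTx. Its lowest Tx value lay just below its highest nonTx value, and the difference was 0.21 ± 0.086 (adjusted p = 0.352). The differences of Rplp1 and Rplp2 were 0.13 ± 0.12 and 0.16 ± 0.086.

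Rpl5 and Rpl11 carry the 5S rRNA into the large subunit and, when free, bind the p53 inhibitor Mdm2. Rpl5 had levels of 6.08, 6.08, 6.11 and 6.28 in Tx and 5.98, 6.0, 6.04 and 5.94 in nonTx, and its difference was 0.15 ± 0.076. Every Tx array was above every nonTx array for Rpl5, whereas the groups overlapped for Rpl11, which had a difference of 0.11 ± 0.084. With quantile normalization these became -0.033 ± 0.061 for Rpl5 and -0.043 ± 0.061 for Rpl11.

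The proteins that line the exit tunnel of the nascent chain were higher at 3 of 3 genes (1 of 3 after quantile normalization), with differences of 0.13 ± 0.087 for Rpl4, 0.23 ± 0.095 for Rpl17 and 0.12 ± 0.097 for Rpl39. Rpl4 had levels of 7.15, 7.15, 7.39 and 7.15 in Tx and 7.19, 7.11, 7.0 and 7.03 in nonTx, so that a single Tx array, replicate 3, stood above the rest. At the rim of the tunnel, Rpl23a and Rpl35 form the landing site of the signal recognition particle, which takes secretory proteins to the endoplasmic reticulum. The 5 rim genes were all higher in Tx, but only 1 of them after quantile normalization. The differences of Rpl23a and Rpl35 were 0.16 ± 0.088 and 0.098 ± 0.078. Rpl26 and Rpl31, also at the rim, had differences of 0.21 ± 0.091 and 0.15 ± 0.099. Rpl19, which also forms a bridge to the small subunit, had levels of 7.90, 8.19, 8.19 and 8.30 in Tx and 8.02, 8.02, 8.03 and 8.30 in nonTx. The groups of Rpl19 overlapped, with a nonTx array the highest, and its difference was 0.050 ± 0.11, the lowest of the large subunit but for Rpl37.

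On the small subunit, proteins of the decoding centre and the mRNA entry channel were close to each other, with 4 of 4 higher (3 of 4 after quantile normalization). Rps3 and Rps2, at the mRNA entry, had differences of 0.20 ± 0.091 and 0.19 ± 0.10. Rps15 and Rps23, which reach towards the decoding site, had differences of 0.20 ± 0.096 and 0.17 ± 0.096. None of the 4 had an unadjusted p under 0.05. Rps6, the substrate of the S6 kinases downstream of mTOR, had levels of 6.84, 6.78, 6.86 and 7.01 in Tx and 6.70, 6.70, 6.84 and 6.73 in nonTx. Its groups overlapped, and the difference was 0.13 ± 0.079 (adjusted p = 0.46). Rps27a, which is made as a fusion with ubiquitin, had a difference of 0.19 ± 0.097.

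**Figure D3:**
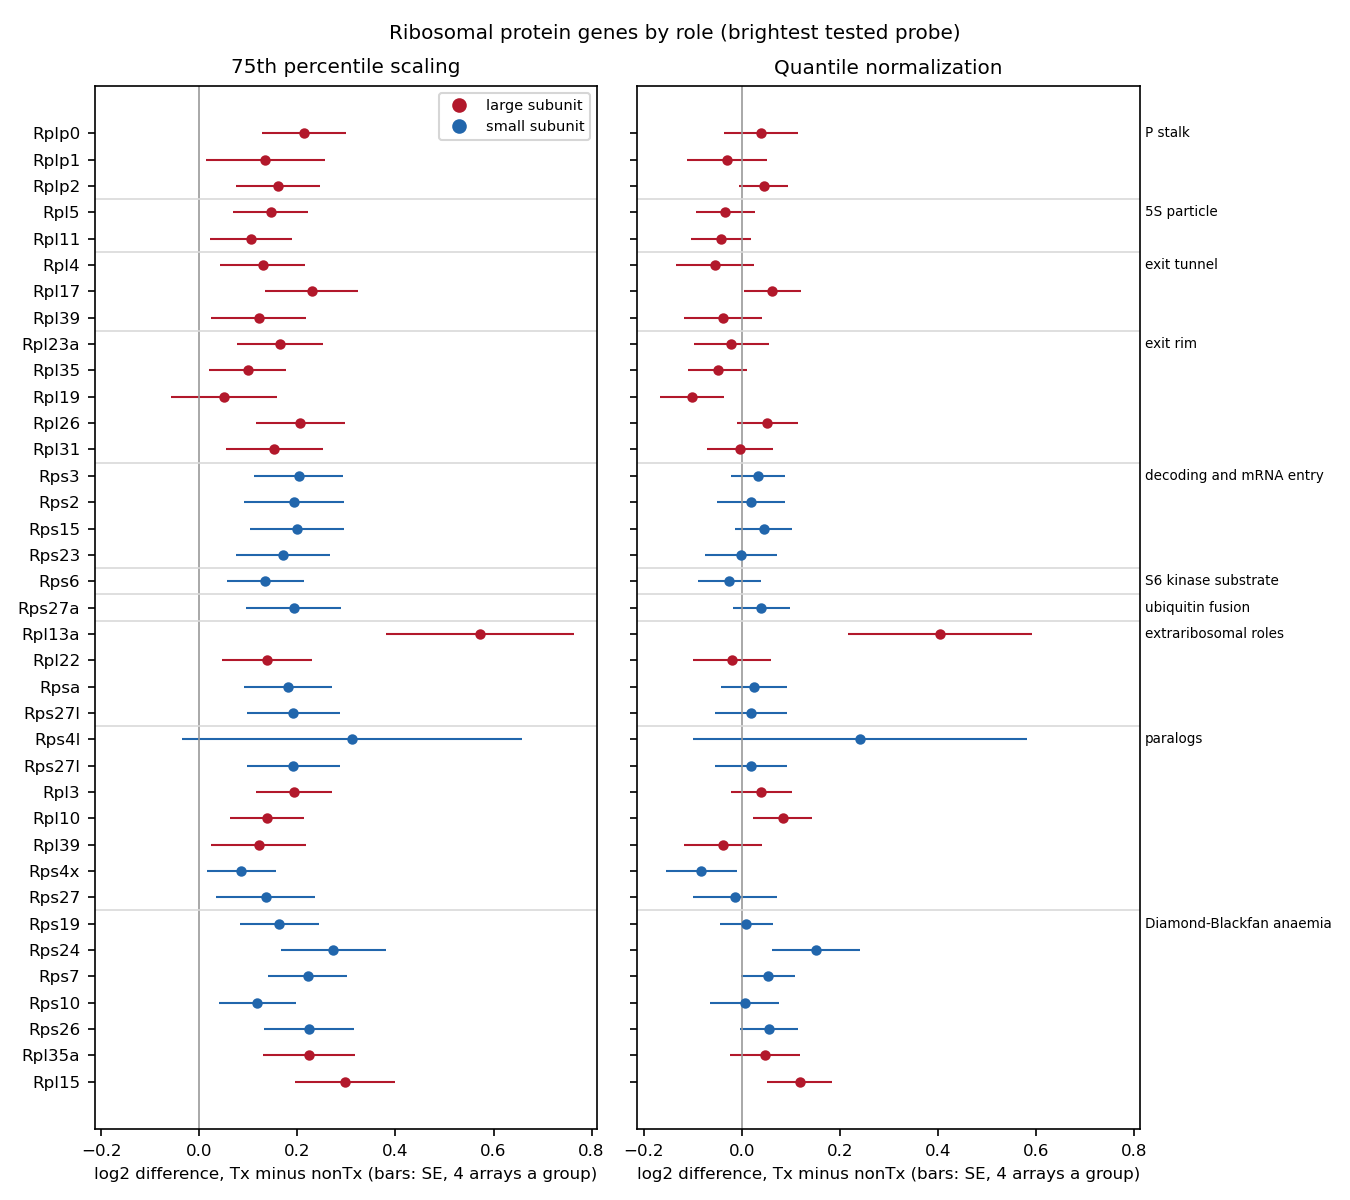
Points are the log2 differences, Tx minus nonTx, of the brightest tested probe of each gene, with SE bars (4 arrays per group), for genes grouped by role; a gene with 2 roles appears under each. With 75th percentile scaling (left) every gene shown lies above 0, from 0.050 for Rpl19 to 0.57 for Rpl13a; with quantile normalization (right) the points lie on both sides of 0, from -0.10 for Rpl19 to 0.40 for Rpl13a.

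Among ribosomal proteins with known roles outside the ribosome, Rpl13a had the largest positive difference of all 172 probes. In human myeloid cells its protein leaves the ribosome after interferon gamma and takes part in silencing inflammatory mRNAs. Rpl13a, measured by 1 probe, had levels of 6.58, 6.60, 6.68 and 6.82 in Tx and 6.14, 6.30, 5.45 and 6.49 in nonTx. All Tx arrays lay above all nonTx arrays, and nonTx replicate 3 was far below the other nonTx arrays. The difference was 0.57 ± 0.19 (1.49-fold, adjusted p = 0.318), 0.41 above the median of the ribosomal protein probes. Without nonTx replicate 3 it was 0.36. After quantile normalization it was 0.40 ± 0.19, with a nonTx array above the lowest Tx array. Rpl22, whose loss in mice impairs the development of αβ T cells, had a difference of 0.14 ± 0.092. Rpsa, which doubles as a laminin receptor, had one of 0.18 ± 0.090, and the p53-induced Rps27l one of 0.19 ± 0.096.

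Paralogs that replace a ribosomal protein in certain tissues were compared with their partners. The testis paralogs Rpl10l and Rpl39l and the muscle paralog Rpl3l were each measured by 1 probe, which was not well above background on any of the 8 arrays. Their partners Rpl10, Rpl39 and Rpl3 were measured on all arrays and had differences of 0.14 ± 0.075, 0.12 ± 0.097 and 0.19 ± 0.078. Rps4l, which RefSeq lists as a transcribed pseudogene, had levels of 1.76, 3.23, 3.03 and 3.43 in Tx and 2.06, 2.35, 2.70 and 3.09 in nonTx. The groups overlapped across a wide range, with Tx replicate 1 the lowest of the 8 arrays, and the difference was 0.31 ± 0.35. It was 0.68 without Tx replicate 1 and 0.12 without Tx replicate 4. Its partner Rps4x had a difference of 0.085 ± 0.071. Rps27 had one of 0.14 ± 0.10, close to that of its paralog Rps27l.

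Loss of 1 copy of certain ribosomal protein genes causes Diamond-Blackfan anaemia in humans, a failure of red cell production. A chosen set of 7 such genes is given here, which does not cover all genes of the disease. Of the 7, 5 were higher in Tx at an unadjusted p under 0.05. That call was made at 7.17% of all tested probes and 20.8% of the brightest 10%. The 5 genes called were Rpl15 (0.30 ± 0.10), Rps24 (0.27 ± 0.11), Rpl35a (0.22 ± 0.094), Rps26 (0.22 ± 0.091) and Rps7 (0.22 ± 0.080). Rps19 and Rps10 had differences of 0.16 ± 0.081 and 0.12 ± 0.078. Rpl5 and Rpl11, described with the 5S particle, are also mutated in this disease and had smaller differences with no such call. Rpl15 had levels of 6.43, 6.61, 6.79 and 6.87 in Tx and 6.29, 6.40, 6.43 and 6.40 in nonTx. Tx replicate 1 lay slightly below the highest nonTx array and the other 3 above. Rps24 had levels of 8.20, 8.39, 8.40 and 8.38 in Tx and 8.27, 7.88, 7.92 and 8.19 in nonTx, with nonTx replicate 1 inside the range of Tx. Rps7 had levels of 5.79, 5.81, 5.90 and 6.05 in Tx and 5.67, 5.67, 5.68 and 5.66 in nonTx. Its nonTx arrays were nearly level, all Tx arrays were above them, and this order held after quantile normalization, with a difference of 0.053 ± 0.055.

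Rpl12, Rpl13a and Rpl15 were among the large subunit genes with the smallest p by their brightest probe. Rpl12, which sits at the base of the stalk, had levels of 7.19, 7.25, 7.35 and 7.54 in Tx and 6.94, 7.06, 7.06 and 7.14 in nonTx and a difference of 0.28 ± 0.094 (adjusted p = 0.316). Every Tx array was above every nonTx array for Rpl12. After quantile normalization its difference was 0.11 ± 0.062.

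On the small subunit the smallest p-values were those of Rps15a, Rps21, Rps7 and Rps16. Rps15a was measured by 3 tested probes with differences of 0.23, 0.31 and 0.27, and at each of them all Tx arrays were above all nonTx arrays. One of these probes had the smallest adjusted p of all ribosomal protein probes, 0.283, with levels of 5.82, 5.86, 5.76 and 6.02 in Tx and 5.63, 5.55, 5.58 and 5.45 in nonTx. Rps21, which takes part in the maturation of the small subunit rRNA, had levels of 7.32, 7.54, 7.37 and 7.62 in Tx and 7.18, 7.18, 7.24 and 7.26 in nonTx and a difference of 0.25 ± 0.087. Rps16, whose tail touches the peptidyl-tRNA, had levels of 8.16, 8.29, 8.43 and 8.53 in Tx and 8.04, 8.14, 8.13 and 8.11 in nonTx and a difference of 0.25 ± 0.093. All Tx arrays lay above all nonTx arrays for both Rps21 and Rps16. The large subunit gene Rpl10a had a difference of 0.23 ± 0.085 and kept its groups apart after quantile normalization, at 0.063 ± 0.050.

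At the low end, Rpl37 was the 1 gene of 79 with a lower level in Tx by its brightest probe. Its single probe was dim, well above background on 2 Tx and 3 nonTx arrays, with levels of -3.92, -3.72, -4.87 and -4.93 in Tx and -3.59, -3.61, -4.21 and -4.71 in nonTx. The probe met the filter for testing only through nonTx, the group with its higher mean level. The groups overlapped and the difference was -0.33 ± 0.38, which became 0.088 with normexp background correction. On the small subunit, Rps20 had levels of 8.11, 8.36, 8.32 and 8.53 in Tx and 8.23, 8.27, 8.34 and 8.42 in nonTx by its brightest probe. The groups overlapped widely, with a difference of 0.017 ± 0.10. By that probe it was -0.12 ± 0.058 after quantile normalization. All 3 tested Rps20 probes were higher in Tx under 75th percentile scaling, with differences from 0.017 to 0.23. The dim Rps20 probe kept all Tx arrays above all nonTx arrays after quantile normalization.

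Probes of a gene did not always point the same way. Of 58 genes with several tested probes, 48 had all of them higher in Tx, and the range of differences within a gene had a median of 0.088. The other 10 genes (Rpl13, Rpl41, Rpl26, Rps24, Rps3, Rps13, Rpl6, Rpl7, Rps12 and Rpl35) had probes in opposite directions, and in all 10 the brightest probe was higher in Tx. Ribosomal protein genes have many processed pseudogenes of nearly the same sequence, and the probe sequences were not used here, so which copies a probe detects was not tested.

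Rpl13 showed the widest range. Its brightest probe had levels of 7.28, 7.14, 7.25 and 7.45 in Tx and 6.99, 7.04, 7.05 and 7.17 in nonTx, with a difference of 0.22 ± 0.087, and its next probe one of 0.19 ± 0.073. A dimmer Rpl13 probe had levels of 3.87, 3.26, 2.83 and 3.52 in Tx and 4.24, 4.12, 3.65 and 3.93 in nonTx. On that probe the difference was -0.61 ± 0.21 (adjusted p = 0.319), and 1 Tx array reached into the nonTx range. It was the 1 ribosomal protein probe with an unadjusted p under 0.05 and a lower level in Tx. The fourth probe, the dimmest, had a difference of -0.050 ± 0.20.

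The dimmer of the 2 Rps3 probes had levels of 6.18, 6.02, 5.95 and 6.14 in Tx and 6.14, 6.18, 6.16 and 6.18 in nonTx. Its difference was -0.089 ± 0.077 under 75th percentile scaling and -0.25 ± 0.081 after quantile normalization, where all Tx arrays lay below all nonTx arrays. The brighter Rps3 probe gave 0.20 ± 0.091 and 0.033 ± 0.055. The dimmer of the 2 Rpl35 probes had a difference of -0.042 ± 0.10, and -0.21 ± 0.090 after quantile normalization. In the other 7 genes the probe that pointed down was the dimmest of its gene, with differences from -0.14 (Rpl41) to -0.024 (Rpl7), each within its standard error. Rpl39, with 5 tested probes, the most of any gene, had differences from 0.076 to 0.34, all higher in Tx.

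**Figure D4:**
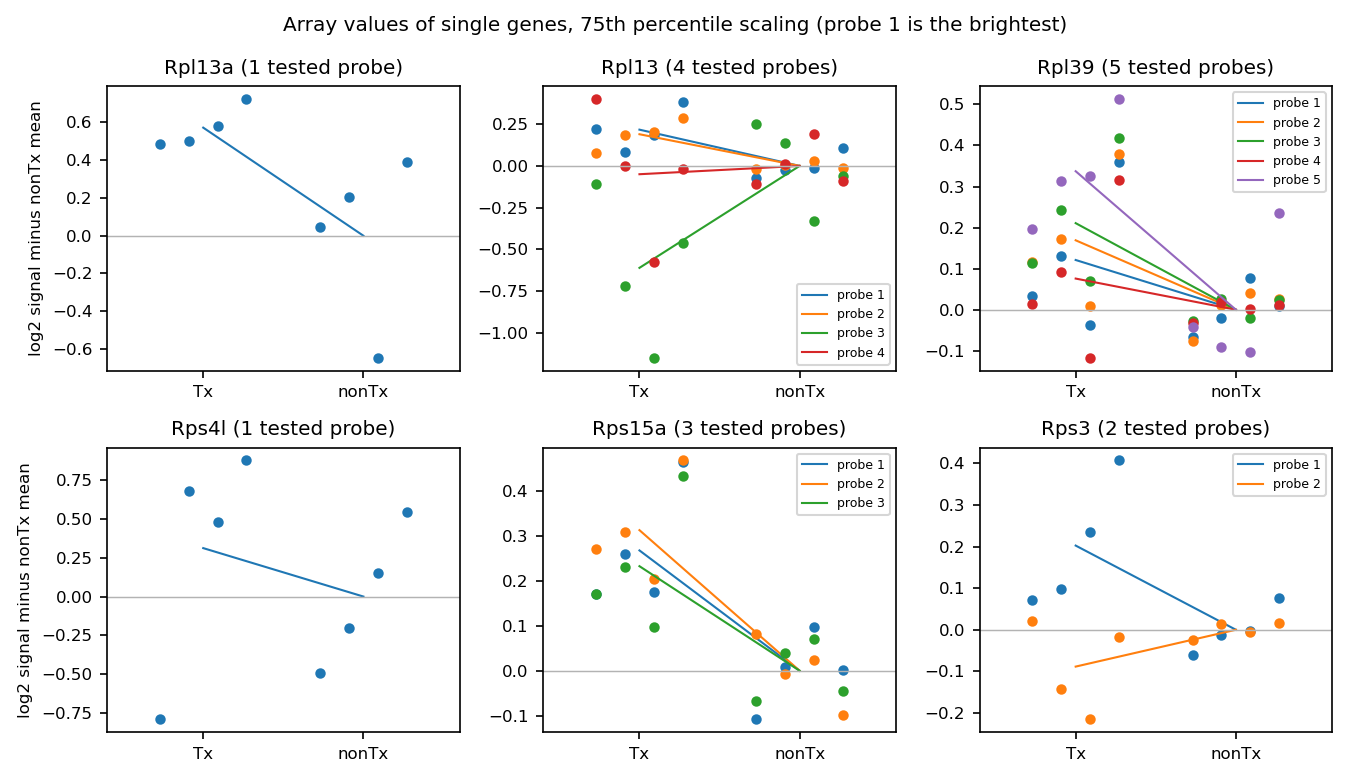
Points are the log2 signal of each array minus the probe's nonTx mean, for Tx (left) and nonTx (right) arrays in replicate order, with a line joining the group means and a colour for each tested probe, probe 1 being the brightest. Rpl13a and the 3 Rps15a probes separate the groups, the Rpl13 and Rps3 probes point in opposite directions, and Rps4l overlaps.

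Besides Rpl10l, Rpl39l and Rpl3l, 6 probes of measured genes were not tested because they were too dim. One probe each of Rpl11, Rps2, Rps15a, Rps19 and Rps27a was well above background on 0 arrays, and one of Rps29 on 1 Tx and 2 nonTx arrays. Of the 172 tested probes, 170 were well above background on all 8 arrays, and 0 were saturated.

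Other genes of translation and ribosome assembly were counted in the same fit, each by its brightest probe. Ribosomal proteins whose symbols lie outside the pattern (Fau, Rack1, Rpl22l1, Rpl7l1 and Rpl36al) were higher at 5 of 5 genes, with a median difference of 0.21, and 1 had an unadjusted p under 0.05. That was Rpl22l1, the paralog of Rpl22, with levels of 5.27, 5.50, 5.53 and 5.78 in Tx and 4.88, 5.23, 5.04 and 5.31 in nonTx and a difference of 0.41 ± 0.13, against 0.14 ± 0.092 for Rpl22. The 2 probes of Rpl36al pointed in opposite directions, at -0.28 and 0.23. Rps3a1, also outside the pattern but not in the list, had a difference of 0.060 ± 0.091, and -0.096 after quantile normalization. Mitochondrial ribosomal proteins, which serve a separate ribosome, were higher at 73 of 78 genes, with a median of 0.17, and 24 had an unadjusted p under 0.05, all with Tx higher. Among all tested probes 52.6% were higher and 7.17% higher at that p, and among the brightest 10% these shares were 86.6% and 20.8%. After quantile normalization the medians of these lists were 0.094 and 0.043.

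Translation factors and other genes whose mRNAs carry a 5′ TOP were higher at 16 of 19 genes, with a median of 0.095. The elongation factor subunits Eef1b2 and Eef1d had differences of 0.24 ± 0.10 and 0.23 ± 0.084, and the initiation factor subunit Eif3f one of 0.31 ± 0.096. Eef1a1, the main elongation factor that delivers aminoacyl-tRNA, had a difference of -0.094 ± 0.085, and Btf3 one of -0.10 ± 0.087. The other probe of each pointed the opposite way, at 0.093 for Eef1a1 and 0.15 for Btf3. Their regulators of the mTOR and Larp1 pathway were higher at 10 of 17 genes, with a median of 0.10. Of the regulators higher in Tx, Akt1s1 had a difference of 0.26 ± 0.11 and Tsc1 one of 0.15 ± 0.12. Larp1 itself had a difference of -0.031 ± 0.087 and Mtor one of -0.049 ± 0.19. Tia1, which represses TOP mRNAs under stress, had one of -0.50 ± 0.16 by its brightest probe. The other Mtor probe was at 0.087, and the 4 Tia1 probes ran from -0.50 to -0.044. After quantile normalization the medians of both lists were below 0, at -0.038 and -0.036.

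Genes of ribosome assembly were higher at 15 of 26, with a median of 0.038, and 2 had an unadjusted p under 0.05 in each direction. Nop10 and Nhp2, of the particles that place pseudouridines in rRNA, had differences of 0.25 ± 0.083 and 0.24 ± 0.085, while Gar1 of the same particles had -0.22 ± 0.099 and Utp20 -0.30 ± 0.12. RNA polymerase I genes, which transcribe the rRNA, were higher at 7 of 13, with a median of 0.032. Polr1b, a core subunit, had a difference of -0.30 ± 0.088. The polymerase I factor Ubtf had one of 1.08 ± 0.33 by its brightest probe, but its 3 probes ranged from -0.37 to 1.08.

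In the lists of markers of other cells, 0 genes passed an adjusted p of 0.05 with limma. At an unadjusted p under 0.05, 6 T cell markers were lower and 2 plasma cell and 3 neutrophil markers higher in Tx, and 0 of the others were called. Among all tested probes 6.03% were lower and 7.17% higher at that p. The list medians of the single arrays separated the groups for T cells and plasma cells and overlapped for the others. T cell markers (Cd3d, Cd3e, Cd3g, Cd2, Lck, Cd5 and Cd28, all bright enough to be tested) were lower in Tx at 6 of 7 genes, with a median difference of -0.61. The median deviation of the list on each array ran from -0.39 to -0.18 in Tx and from 0.12 to 0.46 in nonTx. Plasma cell markers (Jchain, Mzb1 and Sdc1) were higher at 3 of 3 genes, with a median of 0.53, and neutrophil markers (S100a8, S100a9 and Retnlg) at 3 of 3, with a median of 0.66. The remaining gene of each list, Tnfrsf17 for plasma cells and Ngp for neutrophils, was not tested. The medians of the other lists were 0.23 for B cells, 0.082 for Kupffer cells, -0.056 for erythroid cells, -0.15 for sinusoidal endothelium, 0.029 for stellate cells and -0.36 for cholangiocytes. The part of these cells in the ribosomal protein values was not tested.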

How the data were processed

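Liver RNA of 4 Tx and 4 nonTx samples was labelled with Cy3 and measured on one-colour Agilent arrays, starting from 0.5 ug each per the labels' protocols. The scanner files give the intensity of each spot, which the authors obtained with background subtraction in Feature Extraction, version 10.7.1.1 in the file headers and 9.1 in the submitters' processing notes. The deposited table holds the same intensities, log2 values that the authors scaled and centred, and other marks such as detection flags, which were not used. Its symbols chose the members. The members and gene lists were chosen with earlier results of these data known.

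Each log2 intensity was set relative to the 75th percentile of its array, without control spots. A value was left out only where every spot of the probe on that array was flagged as an outlier. Such flags fell on 54 to 120 spots per array. Tests covered the 30955 of 56605 probes that were well above background on 3 or more of the 4 arrays in either group, with 2 or more values in both. The fit was limma 3.58.1 (R 4.3.3) with lmFit and a trended eBayes on 6 residual degrees of freedom. P-values were adjusted by Benjamini-Hochberg over all tested probes, at a threshold of 0.05. The code was tested on simulated data. Errors are standard errors of this fit unless called SD. The number of arrays limits the precision. The brightest tested probe stood for a gene. Named were genes of fixed structural and functional sets, in each subunit the 4 with the smallest p and the 2 with the lowest difference, and those whose probes point in opposite directions; a few of these genes, and of the lists, are not reported here. Rpl10a, Rpl39 with its 5 probes, Rps3a1, single members of the related lists and the dim Rps20 probe were named after their values were seen. Lists have no test of their own and are given by counts and medians. Symbols of other genes were updated through Entrez IDs. Alternatives were quantile normalization, scaling to the median or the 90th percentile, normexp on the median signal (offset 50), and the authors' log2 values. Others dropped the dim-probe filter or required all 8 arrays above background, dropped the variance trend, averaged the probes of a gene, left out each array, or used the replicate number as a block.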

Additional observations from a re-analysis of the deposited data

Results flagged for a closer look

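In 9 of 100 groups of 4 values (named genes and medians of the probe sets, each group on its own), a single array stood far from the other 3 on the log2 scale relative to the 75th percentile. Chance gives about 1 group in 20. In Tx, replicate 4 was high for Rpl5 (6.28), and replicate 3 was high for Rpl4 (7.39). Tx replicate 1 was low for Rpl3 (6.68), Rplp0 (6.60), Rps24 (8.20) and Rpsa (7.27). In nonTx, replicate 4 was high for Rpl19 (8.30) and Rps10 (8.34), and replicate 2 was low for Rpl22 (5.75).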

How the results depend on the processing

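No ribosomal protein probe passed an adjusted p of 0.05 under any setting tried with limma. The number of all probes that passed, 0 as reported (4085 at an unadjusted p under 0.05), was 6 with median scaling, 2 with normexp, 1 each with the authors' values and without the variance trend, and between 0 and 188 with an array left out, 188 being the count without Tx replicate 2. The replicate numbers did not pair the samples (correlations of same-numbered deviations from -0.011 to 0.099), and with them as a replicate block 1 probe passed.

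The count of ribosomal protein probes higher in Tx at an unadjusted p under 0.05, 46 as reported, was 3 with quantile normalization, 124 with median scaling, 14 with the 90th percentile, 29 with the authors' values, 27 without the dim filter, 27 without the variance trend, and 18 to 89 with an array left out. The median difference over ribosomal protein genes was 0.0095 with quantile normalization (0.0029 for the large and 0.021 for the small subunit), and 0.105 to 0.204 with an array left out (0.102 to 0.202 and 0.118 to 0.214). Median scaling moved the median of all tested probes to 0.116, and the ribosomal protein genes to 0.265 (0.265 for the large and 0.271 for the small subunit). Scaling to the median or the 90th percentile shifts all probes of an array together, so those moves follow by construction. With an array left out fewer samples were fitted. The cause of the moves with quantile normalization and with the authors' values was not tested. Nor was that of the moves without the dim filter and without the variance trend, or which scaling is right.

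With quantile normalization 16 of the 47 genes given changed sign and were lower in Tx, and Rpl37 stayed lower at -0.20. On the large subunit the differences became -0.043 (Rpl11), -0.10 (Rpl19), -0.020 (Rpl22), -0.021 (Rpl23a), -0.0033 (Rpl31), -0.049 (Rpl35), -0.038 (Rpl39), -0.055 (Rpl4), -0.033 (Rpl5) and -0.031 (Rplp1). On the small subunit they became -0.023 (Rps12), -0.12 (Rps20), -0.0017 (Rps23), -0.015 (Rps27), -0.082 (Rps4x) and -0.025 (Rps6). With the 90th percentile Rpl19 became -0.023 and Rps20 -0.056. Normexp gave 0.088 for Rpl37 and -0.092 for Rps20, and the mean of 4 probes gave -0.064 for Rpl13. With an array left out, Rpl19 ran from -0.0011 to 0.13, Rps20 from -0.048 to 0.091, Rps4l from 0.12 to 0.68 and Rpl37 from -0.56 to -0.14.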
